A study of Mus musculus with 9 samples.

Results

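The genes described here build, export, coat and hydrolyse triglyceride in the liver: Gpam, Agpat2, Lpin1, Lpin2, Dgat1, Dgat2, Mttp, Plin2, Cidec and Pnpla2. Every AGO-bound region that the deposited table assigns to one of these 10 genes was taken, 144 of 92645 regions in all, and was followed on its own and summed per gene. Of these, 9 regions held a seed match to miR-122-5p, against 8854 in the whole table. AGO CLIP-seq crosslinks RNA to Argonaute, which binds microRNAs and is guided by them to transcripts, and counts the RNA fragments recovered with it. The mice were 4 miR-122 knockouts (KO; 1 female and 3 males) and 5 floxed littermates of normal miR-122 genotype (control; 3 females and 2 males), all 6 weeks old. Each library came from the liver of 1 mouse per the labels. Which Cre line deleted the floxed allele, and in which cells, was not given in the sources used here.

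Triglyceride is made in the endoplasmic reticulum by adding fatty acids to glycerol phosphate in steps, each with its own enzyme. The product either enters lipoproteins for export from the hepatocyte or is stored in cytosolic lipid droplets, whose coat proteins limit access of lipases. MicroRNAs guide AGO to transcripts that match their seed, a short stretch near the microRNA's 5′ end, and miR-122 is the most abundant microRNA of hepatocytes, with long-known effects on liver lipid metabolism in mice.

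The microRNAs below have seed matches in the regions described later, either in the region with most reads of a gene or in a region that changed. Their mature sequences were taken from RefSeq (GRCm38.p6), one or a pair per family, and capitals mark the seed, bases 2 to 8. The let-7 seed is matched in the leading Gpam region, miR-21a in Dgat2, the shared seed of miR-25 and miR-92a in Lpin1, that of miR-27a and miR-27b in Lpin2, miR-30a in Mttp, and that of miR-15a and miR-16 in Pnpla2. The seeds of miR-101a, miR-130a, miR-148a and miR-125a are matched in Lpin2 regions that changed, and that of miR-103 in a Plin2 region that changed. The seeds of miR-103 and miR-15a share 6 letters, and so do those of miR-130a and miR-148a. In each pair, 1 stretch of a transcript can thus be listed under both.
mmu-let-7a-5p: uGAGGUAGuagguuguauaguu
mmu-miR-21a-5p: uAGCUUAUcagacugauguuga
mmu-miR-25-3p: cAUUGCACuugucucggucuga
mmu-miR-92a-3p: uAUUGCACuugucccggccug
mmu-miR-27a-3p: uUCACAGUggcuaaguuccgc
mmu-miR-27b-3p: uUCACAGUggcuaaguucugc
mmu-miR-30a-5p: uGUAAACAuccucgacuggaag
mmu-miR-15a-5p: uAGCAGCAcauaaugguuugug
mmu-miR-16-5p: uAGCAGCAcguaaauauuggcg
mmu-miR-103-3p: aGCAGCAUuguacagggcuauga
mmu-miR-101a-3p: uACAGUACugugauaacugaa
mmu-miR-130a-3p: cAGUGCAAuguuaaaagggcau
mmu-miR-148a-3p: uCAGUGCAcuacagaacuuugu
mmu-miR-125a-5p: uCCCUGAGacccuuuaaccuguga

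Library totals ran from 445912 to 1170130 counts. As a check of the genotype, the region over the miR-122 gene held 52, 3, 39 and 16 counts in KO libraries, against 447, 270, 378, 396 and 324 counts in control libraries. The KO libraries also stood apart in another way. All 12 tested neuron markers of a list of 15 were higher in KO, and the list summed to 2047, 2350, 2629 and 11566 CPM in KO replicates 1 to 4, against 50.9 to 66.0 CPM in controls, where Nefm, Rbfox1, Stmn2 and Syn1 had no count. CPM are counts scaled to library size with TMM factors, and 3 counts amount to 2.86 to 8.20 CPM in a single library. Hepatocyte markers summed to 20235 to 24590 CPM in KO and 29967 to 46384 CPM in controls, with 7 of 12 lower and 2 higher. Of 11 adipocyte markers, 7 had no region, among them Adipoq, Lep and Plin1, and the rest summed to 53.0 to 78.3 CPM in KO and 52.4 to 95.6 CPM in controls. Among other cells, 4 of 7 tested stellate and fibroblast markers, 3 of 8 Kupffer cell markers and the 1 cholangiocyte marker tested were higher in KO, while summed endothelial markers overlapped (571 to 856 CPM in KO and 798 to 981 CPM in controls). The part of these RNAs in the results below was not tested. Some values are also given without KO replicate 4, which leaves the other 3 KO libraries at 2047 to 2629 CPM of these markers.

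Plin2, which encodes the coat protein of hepatocyte lipid droplets, was the member whose AGO-bound reads fell in KO livers. It was 2.65-fold lower, and no other member passed the test on its summed regions. Of the 10 genes, 8 had enough reads to be tested, and 1 was lower and none higher. Over all 8843 genes tested, 45.2% passed, 23.3% lower and 21.9% higher. Changes were tested with edgeR's quasi-likelihood test, with sex as a term and Benjamini-Hochberg adjustment over all genes at 0.05. The median log2 fold change (KO over control) of the 8 members was -0.14, beside 0.07 over all genes. The 10 genes took 0.240% ± 0.0457 of all counts in KO (SD, n = 4) and 0.290% ± 0.0544 in controls (n = 5), with overlap between the groups. AGO-bound reads depend on how much of a transcript is present as well as on how much of it AGO holds, and these cannot be told apart here. Nor can fewer cells of a type and less RNA per cell.

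**Figure D1:**
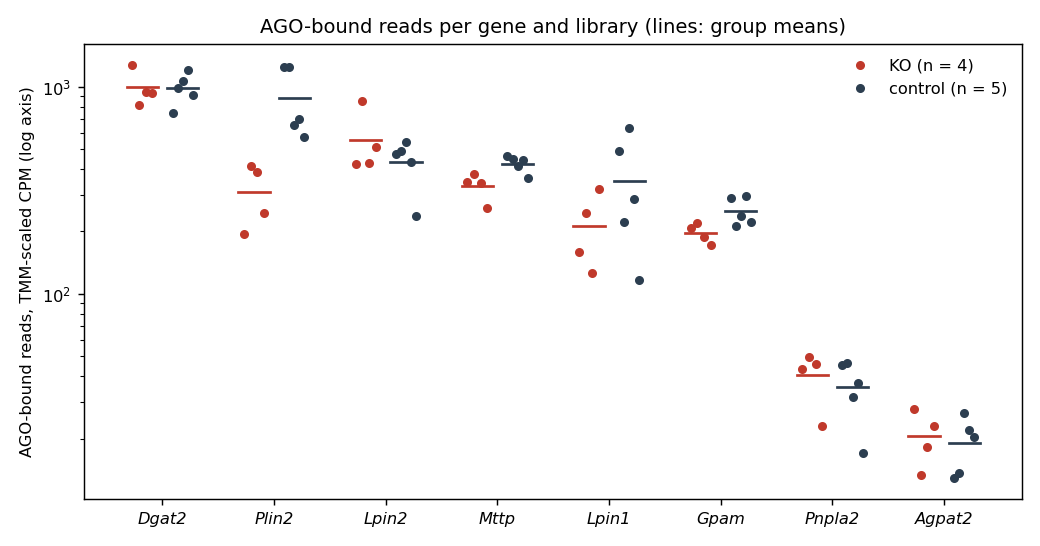
AGO-bound reads of the 8 tested genes in each library, in TMM-scaled CPM on a log axis, with KO (n = 4) left of control (n = 5) and lines at the group means. Plin2 is the gene whose KO libraries all lie below its control libraries, and the other 7 genes overlap between groups.

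Gpam encodes the mitochondrial acyltransferase that commits glycerol phosphate to glycerolipid synthesis. It had 208, 220, 189 and 173 CPM in KO livers, against 290, 213, 236, 296 and 222 CPM in control livers. The KO values lay low, with KO replicate 2 above control replicate 2, and the log2 fold change was -0.35 (SE 0.17, adjusted p = 0.110, edgeR). Gpam had 19 regions, 14 of them in coding sequence and none with a miR-122-5p match. Its leading region, in coding sequence with an 8mer match to let-7 (mm10, chr19:55070956-55071025), fell 2.02-fold. That region had 37.2, 59.7, 52.5 and 46.1 CPM in KO, against 105, 43.7, 65.3, 119 and 107 CPM in controls, where control replicate 2 lay within the KO range (log2 -1.01, SE 0.29, adjusted p = 0.00837, edgeR). None of the other 5 tested Gpam regions passed with edgeR or DESeq2, and 2 of them were under 0.05 before adjustment, both with higher means in KO. These were picked out after their values were seen: a 3′ UTR region with a miR-26 match (26.6 ± 2.30 CPM in KO and 14.5 ± 6.04 CPM in controls; adjusted p = 0.0542) and a coding region with a miR-194 match (14.8 ± 6.03 CPM in KO and 8.02 ± 3.51 CPM in controls; adjusted p = 0.0530). The 3′ UTR held 35.6% ± 2.86 of its counts in KO (n = 4) and 26.2% ± 9.99 in controls (n = 5; exact permutation p = 0.111, adjusted p = 0.222 over 6 genes).

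Agpat2 adds the second fatty acid, giving phosphatidic acid. It was covered thinly, with 69 counts in KO and 75 in controls over 4 coding regions. Levels were 20.6 ± 6.26 CPM in KO (n = 4) and 19.1 ± 5.83 CPM in controls (n = 5), and overlapped (log2 0.08, SE 0.34, adjusted p = 0.867, edgeR). Its one tested region, which holds no match to any listed family (chr2:26593710-26593779), had 13.3 ± 4.12 CPM in KO and 10.2 ± 2.34 CPM in controls (adjusted p = 0.478).

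Lpin1 and Lpin2 encode phosphatidic acid phosphatases, which yield the diacylglycerol that the last step uses, and lipin 1 also acts with nuclear receptors as a coregulator of fatty acid oxidation. Lpin1 had 159, 244, 125.9 and 320 CPM in KO livers, against 488, 221, 630, 287 and 117 CPM in control livers. The controls differed among themselves by more than the groups did, and the KO range lay inside theirs (log2 -0.44, SE 0.48, adjusted p = 0.483, edgeR). Lpin2 had 422, 851, 427 and 509 CPM in KO livers, against 472, 486, 538, 430 and 236 CPM in control livers. Here KO replicate 2 was high and control replicate 5 low, and the groups overlapped (log2 0.44, SE 0.30, adjusted p = 0.262, edgeR). The leading Lpin1 region, in the 3′ UTR with an 8mer for miR-25 and miR-92a (chr12:16538090-16538159), had 64.4 ± 34.3 CPM in KO and 114 ± 44.3 CPM in controls (log2 -0.47, adjusted p = 0.360). That of Lpin2, in the 3′ UTR with an 8mer for miR-27 (chr17:71246402-71246471), had 170 ± 63.6 CPM in KO and 127 ± 49.6 CPM in controls (log2 0.68, adjusted p = 0.128). Neither passed the test.

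Within Lpin2, 3′ UTR regions moved in both directions. The most distal tested region, with matches to miR-130a and miR-148a (chr17:71249073-71249207), had 61.0, 83.4, 50.6 and 66.8 CPM in KO, against 38.6, 27.3, 34.6, 26.8 and 17.0 CPM in controls. All KO values lay above all control values (2.45-fold higher, log2 1.29, SE 0.31, adjusted p = 0.00257, edgeR). Just upstream, a region with a match to miR-101a (chr17:71248878-71248947) rose 2.35-fold (62.3 ± 28.8 CPM in KO and 27.9 ± 8.35 CPM in controls; adjusted p = 0.0123), and lost the call without control replicate 5 (log2 0.95, adjusted p = 0.0649) and among males (1.40, adjusted p = 0.0630). A region listed as 3′ UTR but upstream of one of the gene's coding regions, with a match to miR-125a (chr17:71231205-71231274), was 2.71-fold lower, with 3.10, 17.5, 7.63 and 18.4 CPM in KO, against 37.0, 27.3, 34.6, 31.5 and 13.6 CPM in controls (log2 -1.44, adjusted p = 0.0304). This miR-125a region entered the test through the control libraries, since KO replicates 1 and 3 had too few reads. Its call was lost without KO replicate 1 (log2 -0.69, adjusted p = 0.301), without KO replicate 3 (-1.24, adjusted p = 0.0899) and without control replicate 4 (-1.45, adjusted p = 0.122), as well as among males (-0.89, adjusted p = 0.263) and with upper-quartile scaling (-1.21, adjusted p = 0.0514).

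Lpin1 held the region with the largest rise. It lies within Lpin1 over a SINE repeat, with no match to a listed family (chr12:16555310-16555379), and had 28, 26, 31 and 65 counts in KO libraries, against 2, 0, 3, 1 and 0 counts in control libraries. KO replicate 4, which also held the most neuron marker reads, stood at 149.7 CPM, and the other KO libraries at 26.8 to 29.6 CPM. The part of those cells in this rise was not tested. The log2 fold change was 4.73, and 4.10 without KO replicate 4. With so few control counts the region entered the test through the KO libraries alone, and its values are given as a description. It took 22.7% of all Lpin1 counts in KO and 0.432% in controls.

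Dgat1 and Dgat2 encode unrelated enzymes for the last acylation of triglyceride synthesis. Dgat1 had a single region with 7 counts in KO and 8 in controls, too few to test. Dgat2 had 1275, 818, 939 and 933 CPM in KO livers, against 742, 984, 1067, 1197 and 912 CPM in control livers. The ranges overlapped widely (log2 0.04, SE 0.20, adjusted p = 0.894, edgeR). Most Dgat2 reads lay in 1 region of the 3′ UTR with a 6mer for miR-21a (chr7:99154326-99154395), which took 77.8% of its counts in KO and 64.3% in controls and did not pass the test (771 ± 197 CPM in KO and 644 ± 132 CPM in controls; log2 0.32, adjusted p = 0.335). A neighbouring 3′ UTR region behaved otherwise. It carries an 8mer of a second miR-122-5p class, marked -B in the deposited names and not defined there (chr7:99154207-99154276). This region had 19.6, 15.4, 18.1 and 9.21 CPM in KO, against 82.1, 57.4, 121, 100.3 and 64.5 CPM in controls. The KO libraries were below every control, at 15.6 ± 4.60 CPM in KO (n = 4) and 85.0 ± 26.0 CPM in controls (n = 5; 5.02-fold lower, log2 -2.33, SE 0.34, adjusted p = 2.8e-05, edgeR). This -B class region entered the test through the control libraries, since KO replicate 4 had too few reads, and its values are given as a description. The 5 other tested Dgat2 regions did not pass, including a 3′ UTR region with a 6mer for miR-122-3p, the other strand of the same precursor (log2 -0.62, adjusted p = 0.188).

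Mttp encodes the large subunit of the microsomal triglyceride transfer protein, which loads lipid onto apolipoprotein B. It had 345, 379, 343 and 258 CPM in KO livers, against 460, 445, 412, 444 and 360 CPM in control livers. KO replicate 2 lay above control replicate 5 and the groups otherwise did not cross (log2 -0.32, SE 0.17, adjusted p = 0.142, edgeR). None of its 7 tested regions passed, with 1 under 0.05 before adjustment by edgeR and none called by DESeq2. The leading one, a 3′ UTR region with an 8mer for miR-30 (chr3:138090962-138091031), had 137 ± 31.7 CPM in KO and 158 ± 21.0 CPM in controls (log2 -0.20, adjusted p = 0.555). The region beside it (chr3:138091037-138091106), named for the absence of overlap after its values were seen, had 50.4 ± 7.11 CPM in KO and 76.3 ± 8.88 CPM in controls (log2 -0.56, adjusted p = 0.0783).

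Plin2 had 193, 414, 385 and 244 CPM in KO livers, against 1238, 1243, 650, 696 and 574 CPM in control livers. Each KO library was below each control, and among the controls replicates 1 and 2 were highest (log2 -1.41, SE 0.36, adjusted p = 0.00669, edgeR). Plin2 was the single tested member without overlap between groups, a property of 40.5% of all genes tested. Without KO replicate 1, the one female KO, the fold change was -0.87 and missed the threshold (adjusted p = 0.0510). It passed without each other library, and among males alone (log2 -0.92, adjusted p = 0.0449). Without KO replicate 4 the fold change was -1.34 (adjusted p = 0.00319).

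The 3 Plin2 regions that fell were all coding and lay 10.1 to 13.1 kb from the annotated gene start. The deepest fall was at a region with a 7mer-A1 match to miR-122-5p at 10.1 kb (chr4:86660077-86660146, with the 6-base seed match at chr4:86660100-86660105 on the minus strand). The region held 4, 9, 12 and 4 counts in KO libraries, against 368, 156, 287, 343 and 160 counts in control libraries. That is 8.52 ± 3.10 CPM in KO (n = 4) and 380 ± 133 CPM in controls (n = 5), 40.2-fold lower, with no library of one group near the other (log2 -5.33, SE 0.40, adjusted p = 3.5e-08, edgeR). With so few KO counts the region entered the test through the control libraries alone, and its values are given as a description. The authors' deposited table gives this region a control over KO log2 value of 5.79 and its seed match a mean phyloP of 1.38, a conservation score that is above 0 where bases changed more slowly than expected without selection. A second coding region at 12.9 kb, with a match to miR-103 and none to miR-122 (chr4:86657205-86657385), had 42.4, 123, 96.4 and 76.0 CPM in KO, against 322, 434, 177, 164 and 144 CPM in controls. It was 2.52-fold lower without overlap (log2 -1.33, adjusted p = 0.0162). It was not called without KO replicate 1 (log2 -0.57, adjusted p = 0.212) or among males (log2 -0.78, adjusted p = 0.0875). The coding region next to it at 13.1 kb (chr4:86657100-86657169), which has no listed match, was 2.20-fold lower (14.3 ± 4.90 CPM in KO and 30.9 ± 9.83 CPM in controls; adjusted p = 0.0137), and missed the threshold without KO replicate 1 (0.0545) or KO replicate 2 (0.0506). The other 6 tested regions did not pass, with log2 fold changes from -0.36 to 0.25, among them the 3′ UTR region at 13.5 kb (22.0 ± 11.0 CPM in KO and 22.7 ± 12.8 CPM in controls; log2 0.17, adjusted p = 0.791).

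**Figure D2:**
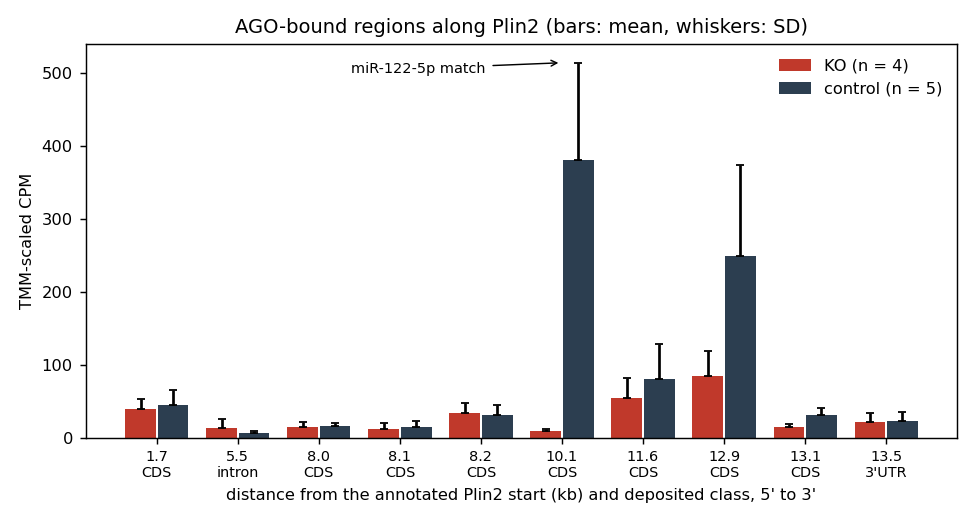
Mean TMM-scaled CPM of 10 of the 11 Plin2 regions in KO (left bars, n = 4) and control (right bars, n = 5), whiskers showing 1 SD, ordered by distance from the annotated gene start in kb; a thinly covered region downstream of the gene is not drawn. The region with the miR-122-5p match stands at 8.52 CPM in KO and 380 CPM in controls, and the region at 12.9 kb at 84.3 CPM in KO and 248 CPM in controls, while the first 5 regions stand at 44.8 CPM or less in both groups.

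Cidec, which promotes the fusion of lipid droplets, had a single coding region (chr6:113428125-113428194) with 7 counts in KO and 3 in controls and was not tested. Pnpla2 encodes adipose triglyceride lipase, which starts the breakdown of stored triglyceride. It had 43.4, 49.4, 45.8 and 23.0 CPM in KO livers, against 45.1, 46.4, 31.7, 37.3 and 17.0 CPM in control livers, with 1 library in each group below its others (log2 0.36, SE 0.32, adjusted p = 0.385, edgeR). All 8 of its regions lay in the 3′ UTR. The one tested, with 2 matches to the miR-15 and miR-16 seed (chr7:141459964-141460033), had 22.6 ± 5.97 CPM in KO and 20.5 ± 10.4 CPM in controls (adjusted p = 0.530).

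With the miR-122-5p regions removed from every gene and library, the picture among the members shifted: Gpam and Mttp were lower in KO, and Plin2 no longer passed. On these sums 2 of the 8 tested members were called, both lower, where 34.0% of 8430 genes passed. With libraries scaled as in this fit, Gpam had 214, 228, 195 and 181 CPM in KO, against 362, 260.0, 297, 369 and 275 CPM in controls, and was 1.54-fold lower (log2 -0.62, SE 0.17, adjusted p = 0.0149, edgeR). Mttp had 355, 391.8, 353 and 268 CPM in KO, against 556, 530.0, 497, 532 and 433 CPM in controls, and was 1.45-fold lower (log2 -0.53, SE 0.17, adjusted p = 0.0258). In these 2 of the 8 genes all KO livers were under all controls; the groups were without overlap, in either direction, in 33.2% of all genes tested. Gpam has no miR-122-5p region, so its counts were the same in both sums and the scaling of the libraries made the difference. Genes without any such region moved by a median of -0.26 on the log2 scale between the 2 fits (4669 genes). Mttp kept 1172 of 1174 counts in KO and 1488 of 1543 in controls, a loss that alone would bring its fold change nearer to 0. Its log2 fold change still went from -0.32 to -0.53, so the scaling made this call too. The value of Plin2 below holds the same change of scaling and is not on the scale of its sum over all regions. Neither call held in every subset: among males alone no member passed (log2 -0.69 for Gpam and -0.53 for Mttp, adjusted p = 0.0708 and 0.159), nor without control replicate 4 (-0.40 and -0.38, adjusted p = 0.162 and 0.205). Mttp also lost its call without KO replicate 1 (adjusted p = 0.101) and without control replicate 3 (0.0803). Plin2 with its miR-122-5p region left out had a log2 fold change of -0.84 (SE 0.37, adjusted p = 0.106), with 311 ± 108 CPM in KO, 619 ± 269 CPM in controls and overlap between them. This value ranged from -1.15 to -0.24 with 1 library left out, nearest to 0 without KO replicate 1, and was -0.26 among males (adjusted p = 0.538). The remaining members had log2 fold changes from -0.51 for Lpin1 to 0.25 for Lpin2 and did not pass. The median over members was -0.37, beside 0.04 over all genes.

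**Figure D3:**
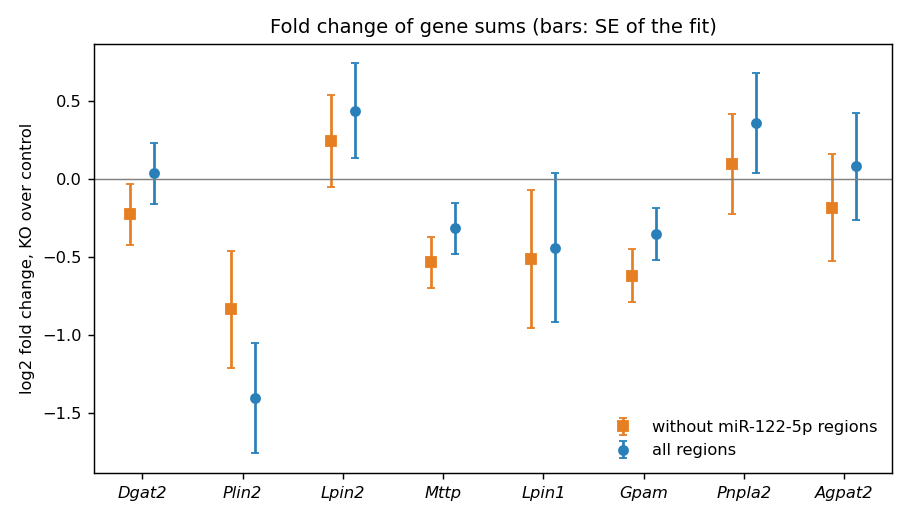
Log2 fold change of KO over control for the summed regions of each tested gene, without miR-122-5p regions (squares) and with all regions (circles), bars showing 1 SE of the fit. Plin2 lies at -0.84 without and -1.41 with its miR-122-5p region, and the 7 other genes lie lower without such regions, among them Gpam at -0.62 without and -0.35 with them. The 2 fits are scaled apart, with a median of -0.26 between them in genes that have no such region.

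The 9 miR-122-5p regions were spread over Lpin1, Lpin2, Mttp and Plin2, and together held 37 counts in KO and 1716 in controls. Outside Plin2 they were too thin or too uneven to pass the filter, and they are named here after their values were seen. An Lpin1 intronic region with an 8mer (chr12:16565305-16565374) held 1 count over the KO libraries, against 54, 0, 139, 29 and 7 in the controls, so that 1 control had none. In Lpin2, a 7mer-m8 region (chr17:71235959-71236028) held 2 counts in KO and 58 in controls, and an intronic 8mer region (chr17:71189089-71189158) 2 in KO and 29 in controls. The 7mer-m8 region is listed as downstream but lies upstream of one of the gene's coding regions. In Mttp, a coding region with a 6mer (chr3:138103239-138103308) held 2 counts in KO and 31 in controls, and its mean phyloP of 2.25 was the highest among the 9 matches. The other 4, in Lpin1, Lpin2 and Mttp, held 0 or 1 count each in KO and 10 to 16 in controls. Beyond these, an Lpin1 intronic region with a 7mer-m8 for miR-122-3p (chr12:16578654-16578723) held 2 counts in KO and 222 in controls.

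The share of a gene's own counts that fell in its miR-122-5p regions is free of library scaling, and it fell in all 4 genes. For Plin2 it was 2.14%, 2.24%, 2.97% and 3.77% in KO livers, against 47.9%, 34.3%, 43.7%, 47.1% and 47.3% in control livers. A single coding region thus gave 3.77% or less of the gene's AGO-bound reads in every KO liver and 34.3% or more in every control liver. For Lpin1 the share was 0.162% ± 0.325 in KO (n = 4) and 12.9% ± 8.71 in controls (n = 5), for Lpin2 0.182% ± 0.232 in KO and 5.70% ± 2.61 in controls, and for Mttp 0.293% ± 0.421 in KO and 3.35% ± 0.688 in controls. All KO livers lay below all controls in each gene (two-sided exact permutation p = 0.00794 for Plin2 and Mttp, the smallest that the splits of 9 livers can give, and 0.0159 for Lpin1 and Lpin2; adjusted p = 0.0159 over the 4 genes). These regions held 37 counts in KO and 1716 in controls, so nearly all their reads came from controls. The p-values restate that loss and are given as a description. Several KO shares were 0. For Lpin1 a count of 0 allows up to 1.27%, 2.27% and 2.16% in KO replicates 2, 3 and 4, and control replicate 2 had 1.23%, so these 3 KO livers could not be told apart from that control at this depth. For Lpin2 the lowest control share was 1.44%, in control replicate 5, which held 139 counts with these regions and 137 without them. A count of 0 allows up to 1.36% in KO replicate 4, close to that share. Without any one KO library the adjusted p of Lpin1 was 0.0536, just past the threshold.

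**Figure D4:**
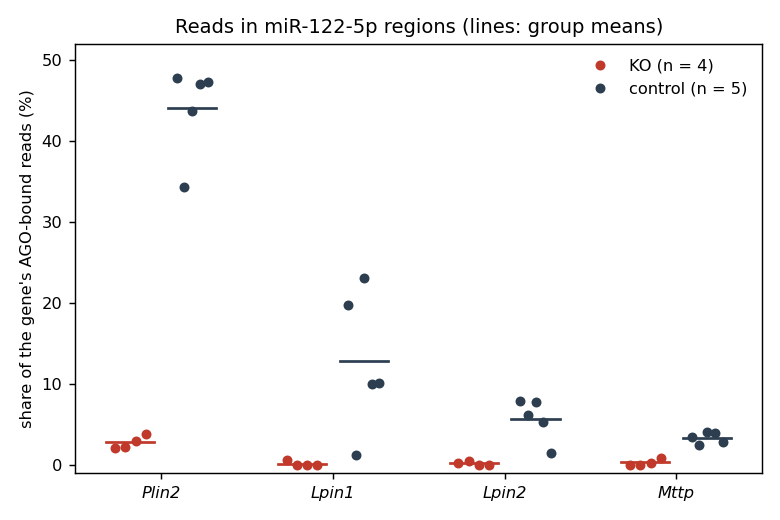
Percent of each gene's AGO-bound reads that lie in its miR-122-5p regions, per library, with KO (n = 4) left of control (n = 5) and lines at the group means. Plin2 stands at 2.14% to 3.77% in KO and 34.3% to 47.9% in controls, and the control values of Lpin1 spread from 1.23% to 23.1%.

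The share of counts in the 3′ UTR was higher in KO for Lpin2 (81.8% ± 1.69 in KO and 75.2% ± 1.36 in controls) and for Plin2 (6.99% ± 2.23 in KO and 2.51% ± 0.699 in controls; exact permutation, adjusted p = 0.0238 for each over 6 genes). Neither held once the miR-122-5p regions, none of which lies in these 3′ UTRs, were left out of the total, which left 81.9% in KO and 79.8% in controls for Lpin2 (adjusted p = 0.371) and 7.18% in KO and 4.46% in controls for Plin2 (adjusted p = 0.333). Both calls were also lost when any one library was left out. The shares of Gpam, Lpin1, Dgat2 and Mttp overlapped between groups and did not pass.

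Taking the regions of all members, 42 of 144 had enough reads to be tested, and 6 were lower, 3 higher and 33 did not pass. That is 21.4% called, beside 45.1% of the 17182 regions tested in the whole table and 36.8% of those without a miR-122-5p match. The groups did not overlap in 8 of the 42, 4 lower and 4 higher, a property of 39.5% of all regions tested. The 6 lower regions were those of Plin2 (3), Dgat2, Gpam and Lpin2 described above, and the 3 higher were the SINE region of Lpin1 and the Lpin2 pair. The filter keeps a region with enough reads in either group alone. The SINE region passed it through the KO libraries and the miR-122-5p region of Plin2 through the controls, so that both had to differ once tested. The -B class region of Dgat2 and the miR-125a region of Lpin2 also passed it through the controls, as some of their KO libraries had too few reads. By class, 22 tested regions lay in the 3′ UTR (2 lower, 2 higher), 17 in coding sequence (4 lower, none higher; 5 of the 17 under 0.05 before adjustment, and 4 called by DESeq2) and 2 in the 5′ UTR (no call by edgeR, none under 0.05 before adjustment and none by DESeq2). None of the 34 intronic regions could be tested. The microRNA families matched in most member regions were miR-15 and miR-16 with their relatives (18 regions), miR-27 (13), miR-101 and miR-144 (12) and miR-103 and miR-107 (12), and 29 regions matched no listed family.

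**Figure D5:**
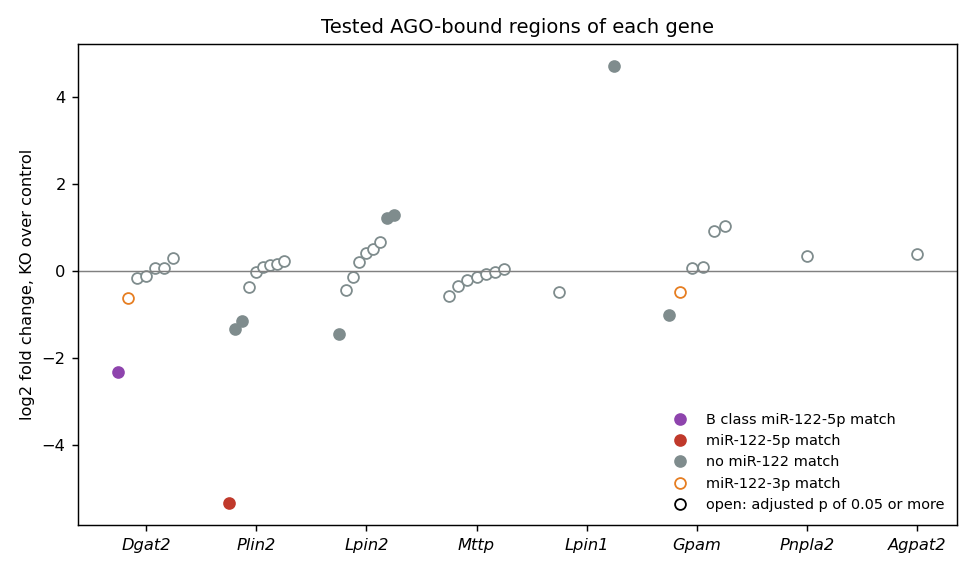
Log2 fold change of KO over control for each of the 42 tested regions, grouped by gene; filled points passed the test and colours give the kind of miR-122 match. The miR-122-5p region of Plin2 lies at -5.33 and the -B class region of Dgat2 at -2.33, both below the other regions of their genes, and the SINE region of Lpin1 at 4.73.

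Around these members, other genes of triglyceride synthesis, lipoprotein assembly, droplets and lipolysis were looked up in lists chosen with earlier results of these data known. Of 53 tested, 19 were lower and 6 higher, 47.2% in all beside the 45.2% of all genes, with a median log2 fold change of -0.07. With TMM factors from genes without a miR-122-5p region, 25 were lower and 2 higher. On sums without miR-122-5p regions 13 were lower and 3 higher of 50, where 34.0% of all genes passed. The smallest adjusted p-values among the lower genes belonged to Hsd17b13, a droplet-associated hydroxysteroid dehydrogenase of hepatocytes (19.0 ± 10.4 CPM in KO and 247 ± 44.2 CPM in controls; log2 -3.58, adjusted p = 3.2e-06, edgeR), and the fatty acid carrier Fabp1 (166 to 251 CPM in KO and 847 to 1950 CPM in controls; log2 -2.55). They were followed by the droplet coat gene Plin3 (-2.48), the carboxylesterase Ces1d (-3.75), Tm6sf2, needed for lipoprotein lipidation (-3.38), and the droplet protein gene Cideb (-1.48). Ces1d belongs to a cluster of near-identical genes, so its counts are uncertain. Fabp1 has no miR-122-5p region, and on 3′ UTR regions alone its log2 fold change was -0.65 and did not pass (adjusted p = 0.350). Plin3 has 4, and without them its fold change was -0.43 and did not pass (adjusted p = 0.421). Hsd17b13 has 3, Ces1d 4 and Cideb 1. Without them their log2 fold changes were -2.49, -1.53 and -1.34 and still passed (adjusted p = 1.2e-04, 0.00792 and 1.4e-04). The 6 higher genes were the acyl-CoA synthetases Acsl4 (421 ± 24.0 CPM in KO and 154 ± 47.8 CPM in controls; log2 1.35, adjusted p = 1.0e-04, edgeR) and Acsl3 (log2 1.42), the phosphatase Ppap2c (1.23), the acyltransferase Lpcat2 (1.51), the phospholipase Pnpla8 (0.65) and the lysosomal lipase Lipa (0.49). With 1 library left out, the call was lost in 7 of 9 fits for Lipa (log2 0.32 to 0.64), 5 for Pnpla8 (0.47 to 0.92), 2 for Lpcat2 (1.05 to 2.20) and 2 for Ppap2c (1.04 to 1.72), and in none for Acsl4 and Acsl3. On sums without miR-122-5p regions Acsl4 and Acsl3 still passed (adjusted p = 7.3e-04 and 0.0320, edgeR). Ppap2c, Lpcat2, Pnpla8 and Lipa did not (adjusted p = 0.0531, 0.0658, 0.111 and 0.355). Nor did Ppap2c, Lpcat2, Pnpla8 and Lipa pass with TMM factors from genes without a miR-122-5p region (0.0605, 0.0624, 0.308 and 0.604). Acsl3 stood at 94.4 CPM in KO replicate 4, the library with most neuron marker reads, and at 29.9 to 43.9 CPM in the other KO libraries. Without KO replicate 4 its fold change was 1.11 (adjusted p = 0.00458). Among males it was 1.41 and missed the threshold (adjusted p = 0.0721).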

How the data were processed

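AGO-bound RNA was measured by CLIP-seq in 9 livers. Reads were aligned with Bowtie2 to mm10, per the submitters' processing notes. Versions, the peak caller, duplicate removal and the counting rule are not stated in those notes or the labels. The authors deposited 1 table of whole-number read counts per region and library, with 143524 rows, 1 per region and seed match; repeated rows of a region were counted once, and the median region is 70 bases wide. The same table holds the authors' log2 change per region (control over KO) and a phyloP score per seed match, both used as deposited. Regions without a gene name held 11.0% of counts and entered no gene sum.

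Counts per region, and per gene with and without miR-122-5p regions, were tested with edgeR 4.0.16 in R 4.3.3 (TMM scaling, filterByExpr, quasi-likelihood F-test, sex and genotype as terms). P-values were adjusted by Benjamini-Hochberg over all regions or genes tested, at 0.05, and adjusted p-values come from edgeR unless another test is named. CPM of gene sums use the scaled library sizes of the gene fit concerned. CPM of single regions use those of the gene fit on all regions. Fold changes of single regions come from the region fit, which has its own scaling and sex as a term. They can therefore differ from the ratio of the printed CPM. SE is the fold change divided by the square root of F. DESeq2 1.42.0, other scalings and filters, a fit without sex, males alone, a replicate block and each library left out were the alternatives. Shares within a gene were compared by two-sided exact permutation. The fit was tested on simulated data with 200 changed rows. Limits from counts of 0 cover counting error only. Python 3.11.15, pandas 2.3.3 and matplotlib 3.10.9 made the summaries and figures.

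The genes and lists were chosen with earlier results of these data known. By rule, each member's gene sum, its region with the highest mean CPM and tested miR-122-5p regions are named, and of other pathway genes the 6 called with the smallest adjusted p in each direction. Other called regions were named after their values were seen. Sequences at seed matches were not analysed here.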

Additional observations from a re-analysis of the deposited data

Results flagged for a closer look

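Among 70 groups of 4 or 5 livers checked for a library far from the rest of its group, 4 held one, and chance gives about 1 in 20 groups. In the SINE region of Lpin1, KO replicate 4 had 149.7 CPM, where the other KO livers had 26.8 to 29.6 CPM. In the miR-101a region of Lpin2 (chr17:71248878-71248947), KO replicate 2 had 105 CPM, where the other KO livers had 42.9 to 52.7 CPM. In the same region, control replicate 5 had 13.6 CPM, where the other controls had 29.6 to 35.6 CPM. The share of Lpin1 counts in miR-122-5p regions was 0.649% in KO replicate 1 and 0 in the other KO livers, a difference of 1 count.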

How the results depend on the processing

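The falls of the miR-122-5p region of Plin2 (log2 -6.24 to -4.80), the -B class region of Dgat2 (-2.62 to -2.08) and the let-7 region of Gpam (-1.43 to -0.78) passed under every alternative run. For the Plin2 region, which met the read filter through the controls alone, this is a description. In the main fit the Dgat2 region also met the filter through the controls, so its values are a description as well. Counts of calls moved more. Called members went to 3 with TMM factors taken from genes without a miR-122-5p region, which moves the median of all genes to -0.27. They lay between 0 and 1 with 1 library left out. Without miR-122-5p regions they were 1 with upper-quartile scaling, 1 with at least 10 counts in 4 libraries, 0 among males, and 0 to 2 with 1 library left out. Called member regions numbered 21 without a filter (17 lower, 4 higher) and 8 to 14 with 1 library left out, and were 5 lower and 6 higher with upper-quartile scaling. Pathway genes numbered 15 on 3′ UTR regions alone (12 lower, 3 higher). Calls on 3′ UTR shares were 0 within sex, 0 without miR-122-5p regions and 0 to 0 with 1 library left out. Plin2 on its 3′ UTR region alone had -0.20 (adjusted p = 0.776), and without its miR-122-5p region passed when sex was dropped (-0.98, adjusted p = 0.0282).

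Replicate numbers did not pair the livers (correlations of same-numbered deviations from -0.0903 to 0.0150). The replicate block gave -2.10 for Plin2, which passed, 1 called member, 7 called member regions (6 lower, 1 higher), 14 lower and 3 higher pathway genes, and 2624 called genes in all, against 3996. Under it Plin2 without its miR-122-5p region passed (-1.48, adjusted p = 0.00864), and both higher 3′ UTR regions of Lpin2 were not called (0.97, adjusted p = 0.146, and 0.74, adjusted p = 0.316), nor was Lipa (0.18, adjusted p = 0.693).

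Directions turned only for values that did not pass, apart from Acsl3 (-0.22 on 3′ UTR regions alone), and the cause was not tested. With TMM factors from genes without a miR-122-5p region, Agpat2 was -0.27 and Dgat2 -0.31. Among males Agpat2 was -0.34, Dgat2 -0.31, its leading region -0.22, and Lpin1 0.074, or 0.037 without miR-122-5p regions. Dgat2 was -0.26 on 3′ UTR regions, and the leading Mttp region 0.039 with upper-quartile scaling. Under the block Pnpla2 was -0.33, its leading region -0.51, and without miR-122-5p regions Pnpla2 -0.59, Lpin2 -0.13 and Agpat2 0.31; without sex as a term that sum of Pnpla2 was -0.027. With 1 library left out, sums ran from -0.29 to 0.24 for Agpat2, -0.92 to 0.12 for Lpin1 and -0.26 to 0.20 for Dgat2, and the leading Dgat2 region from -0.0020 to 0.54. Without miR-122-5p regions they ran from -0.52 to 0.046 for Agpat2, -0.97 to 0.050 for Lpin1, -0.065 to 0.63 for Lpin2, -0.49 to 0.036 for Dgat2 and -0.15 to 0.41 for Pnpla2. The Lpin1 3′ UTR share differed by 7.497 points on summed counts and by -11.3 to 0.622 points with 1 liver left out. At this depth 42 of the 144 member regions could be tested.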
